A study of Salmo salar with 34 samples.

Results

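Inorganic (IM) and organic (OM) trace minerals were compared at the low supplementation level in the midgut of Atlantic salmon (Salmo salar) smolt. The fish were taken by their labels, with earlier results of these data known. They number 19 of the 34 fish of the series, namely 8 fed low IM (5 females and 3 males) and 11 fed low OM (6 females and 5 males). The other 15 fish, 6 fed high IM and 9 fed high OM, entered only where the low level was set against the high level. All fish were kept in sea water tanks and sampled after 12 weeks of feeding, and all went through repeated handling stress and a final period of reduced oxygen. The diets shared 1 base mix and differed in the form and amount of copper, iron, manganese, selenium and zinc, given in the IM premix as sulphates, with selenium as sodium selenite, and as the branded Bioplex and Selplex products in the OM premix. The labels give the source and the word low or high, but not the numbered diet or diets meant. The paper describes midgut samples of 3 fish per tank and 3 tanks per diet, which is fewer than the 11 low OM fish. Low OM thus seems to hold fish of more than 1 numbered diet, and the doses pooled may differ between the sources. The tank is not given either. Fish of 1 tank therefore entered as independent, and the p-values measure the spread between fish and not between tanks.

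The midgut is the stretch of intestine behind the pyloric caeca, where nutrients and minerals are taken up across the lining cells. Trace metals are taken up by carrier proteins and serve as cofactors of enzymes of respiration and antioxidant defence, while selenium is built into selenoproteins. Organic forms bind the metal to amino acids, peptides or other organic carriers, whereas sulphates release the free ion in the gut. The question put to the arrays is whether the source of the minerals changed gut gene expression at the level labelled low.

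Each fish was measured on 1 one-colour array with 14841 probes, of which 11638 stood well above the local background on at least 8 of the 19 arrays and were tested. The probe identifiers of the files used here carry no gene name, and 0 of them matched the salmon gene table, so the results are given by probe, and neither the labelled tissue nor any pathway was checked against marker genes. The level of a probe is the log2 of its background-subtracted signal minus the 75th percentile of its array, so a level of 0 is as bright as that percentile. The 75th percentile of the signal itself lay between 87.9 and 435 in low IM (median 296) and between 94.7 and 863 in low OM (median 225). Low IM arrays had 9650 to 12455 probes well above background and low OM arrays 9836 to 13682. The mean difference in this number was -296 probes between low IM and low OM (exact two-sided permutation test, p = 0.617, adjusted p = 0.886 over 7 measures of the arrays). No 2 arrays held identical values, and the correlation of levels between 2 fish lay between 0.795 and 0.987.

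Among fish of the same sex, pairs of the same diet were about as close in overall expression as pairs of different diets. Over all pairs, whatever the sex, the median correlation of levels was 0.936 for 2 low IM fish. It was 0.927 for 1 fish of each diet and 0.909 for 2 low OM fish. These medians were not tested. Over pairs of fish of the same sex, the median correlation of levels was 0.937 where both were fed low IM, 0.936 where 1 was fed low IM and the other low OM, and 0.933 where both were fed low OM. The first principal component held 29.3% of the variance, and its scores ran between -55.2 and 38.3 in low IM and between -57.2 and 121 in low OM. The mean score did not pass the exact permutation test on any of components 1 to 4. The permutation tests of the array measures, here and above, carried no term for sex, slide or scan day. The third component came nearest, with a mean of 13.0 ± 27.9 in low IM and -9.43 ± 25.7 in low OM (SD, n = 8 and 11, exact two-sided permutation p = 0.0892, adjusted p = 0.624). Low OM males 6 and 3 lay farthest out, the first with a score of 121 on component 1 and the other with 95.9 on component 2, and the counts and named probes below were also computed without them.

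**Figure D1:**
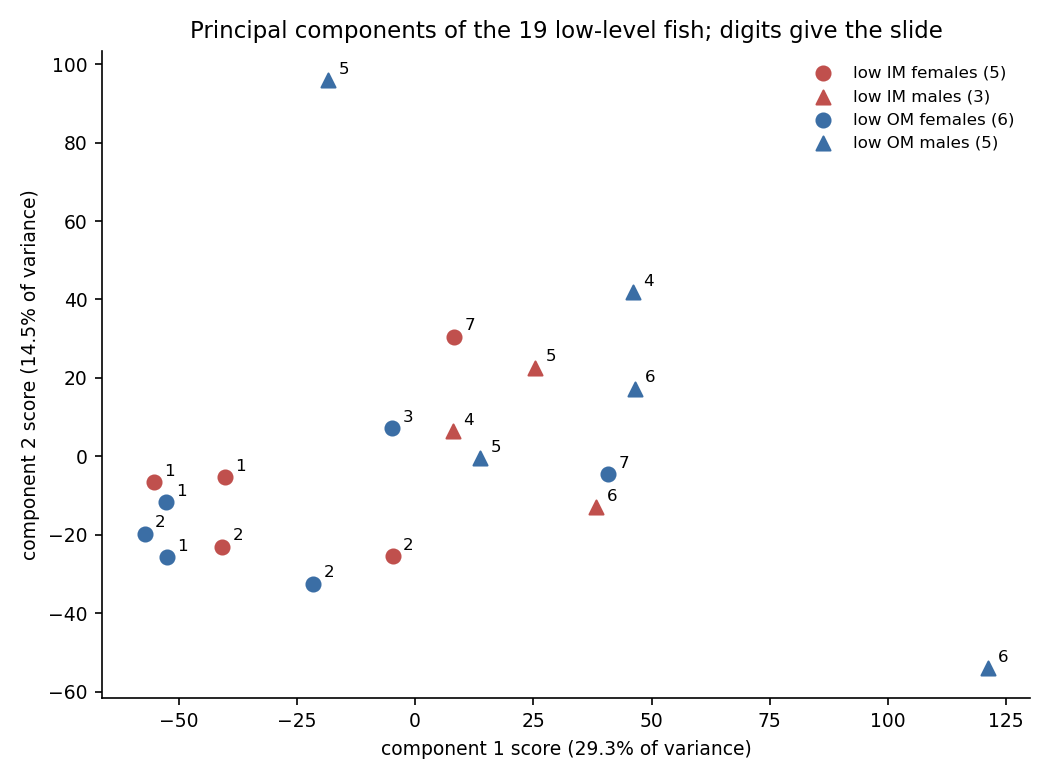
Scores of the 19 low-level fish on the first 2 principal components of 10622 probes with a value in every fish; colour gives the diet, shape the sex and the digit beside each point the slide of the array. Low IM and low OM fish overlap along both axes. Females scanned on the first day have negative scores on component 1 (-57.2 to -4.79), as do low OM female 5 and male 3 of the second day. Low OM males 6 (score 121 on component 1) and 3 (95.9 on component 2) stand apart.

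The low-level fish were spread over 7 slides and 2 scan days, and 6 of the slides held both diets. Every slide held low-level fish of 1 sex only and all males were scanned on the second day, so sex and slide cannot be told apart, whereas mineral source was spread over the slides. Arrays of the same slide had a median correlation of 0.944, against 0.923 for arrays of different slides. In the fit of the 19 low-level fish, males and females differed at 526 probes (350 higher and 176 lower in males) after adjustment, 4.52% of those tested with limma and Benjamini-Hochberg adjustment, a difference that carries slide with it.

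With sex as a term, no probe passed an adjusted p of 0.05 between low IM and low OM (0 of 11638, a background of 0%, lowest adjusted p = 0.999 with limma). An unadjusted p under 0.05 was reached by 404 probes, which is 3.47% of those tested. Of these, 246 were higher and 158 lower in low IM. Differentially expressed genes (DEG) were then counted by a fold change and an unadjusted p, as in the study's methods. With a fold change over 1.75 and an unadjusted p under 0.05, they numbered 156 probes (1.34% of those tested), 124 higher and 32 lower in low IM. Fish left out singly moved this count between 107, without low IM male 1, and 255, without low OM male 3. It was 249 without low OM male 4. The adjusted count remained 0 with each fish left out, and was 1 with low OM males 3 and 6 both left out. With both left out the DEG numbered 212, 170 higher and 42 lower in low IM.

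The limits on the size of the difference are more informative than the count. The median absolute log2 fold change was 0.17, with a median standard error of 0.26. The median over all tested probes was -0.01, which the scaling of each array on its own percentile largely fixes. The 95% confidence interval lay within 1.75-fold in either direction for 6427 probes (55.2%) and within 2-fold for 8109 probes (69.7%). For the remaining 3529 probes the interval reached beyond 2-fold, so 8 against 11 fish did not bound the difference below that size. The interval reached a median of 1.47-fold to either side of the estimate, and 2.08-fold at the 90th percentile.

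The estimates were lopsided. A fitted difference over 1.75-fold, whatever its p, was seen at 332 probes in the direction of higher in low IM and at 74 in the direction of lower. The log2 fold changes ran from -0.43 at the 5th percentile to 0.65 at the 95th, around a median near 0. Higher calls made up 79.5% of the DEG, between 74.8% and 88.9% under the alternative scalings and background corrections. The tilt was not a feature of each slide. Within slide 1 the counts were 420 higher and 131 lower in low IM and within slide 6 they were 428 and 118, but within slide 2 they were 539 and 589 and within slide 5 they were 30 and 156. Slides 1 and 2 held 2 low IM and 2 low OM females each, and slides 5 and 6 held 1 low IM and 2 low OM males each.

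**Figure D2:**
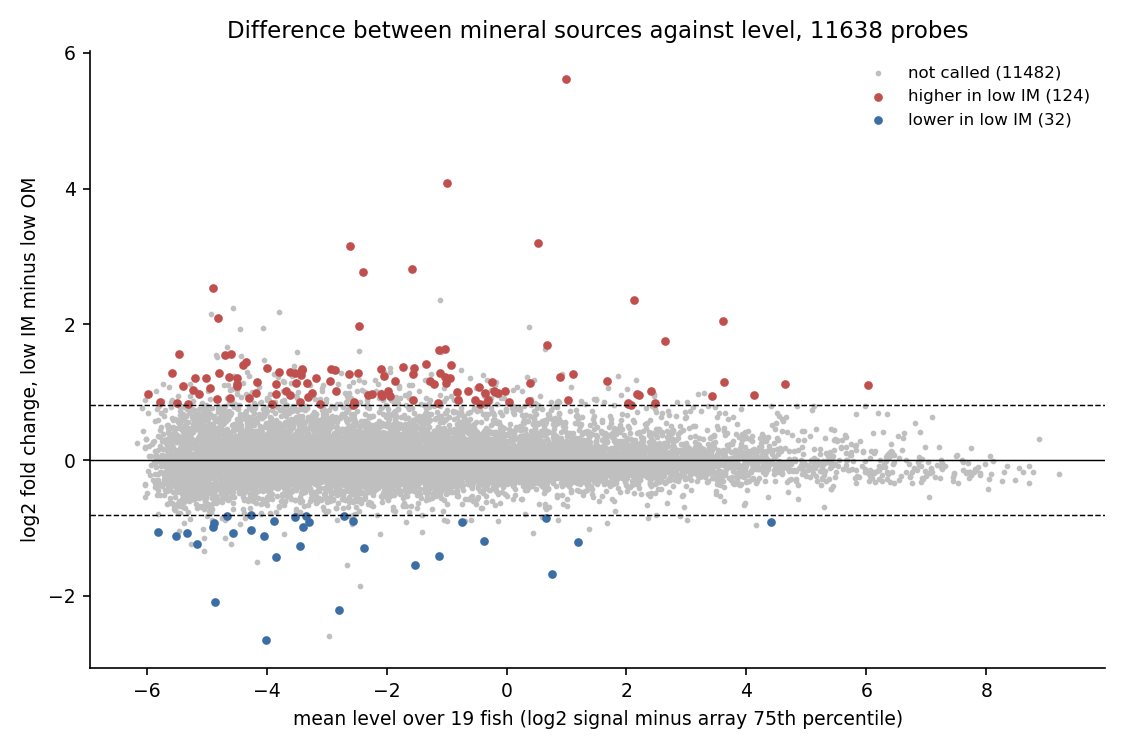
Log2 fold change, low IM minus low OM, against the mean level over the 19 fish for the 11638 tested probes; dashed lines mark 1.75-fold, and red and blue points are the 124 probes higher and the 32 lower in low IM by the fold and unadjusted p criteria. The called probes spread over dim and bright probes but not over the very brightest, with the widest scatter among the dim ones, and no probe passed the adjusted threshold.

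Dim probes made up much of the list. Of the tested probes, the dimmest 25% held 56 DEG, the next 25% held 42, the next 33 and the brightest 25% held 25. The median reach of the interval to either side of the estimate was 1.76-fold, 1.51-fold, 1.36-fold and 1.33-fold in the same order. Among the 8335 probes well above background on all 19 arrays, 73 were DEG (0.876%), 64 higher and 9 lower in low IM. Among the 3303 probes well above background on 8 to 18 arrays, 83 were DEG (2.51%), 60 higher and 23 lower.

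A presence or absence of signal did not separate the diets. The number of probes well above background on every array of one diet and on none of the other was 0 in both directions. Of the 14841 probes on the array, signal was seen on all 8 low IM arrays but not on all low OM arrays at 510. The most uneven of these still had signal on 5 of the 11 low OM arrays. In the other direction 412 probes had signal on all 11 low OM arrays but not on all low IM arrays, with at least 4 of the 8 low IM arrays above background. The levels of the 8 low IM fish and the 11 low OM fish overlapped at each tested probe, and the number of probes without overlap was 0.

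The median spread between fish was larger in low OM than in low IM, mainly among males, where low IM held 3 fish. After the sex means were removed, the median SD of a probe was 0.49 in low IM and 0.59 in low OM on the log2 scale, and it was larger in low OM at 67.3% of the probes. Without low OM male 6 the low OM value was 0.56 and the share 61.3%. Between females the medians were close, 0.46 in low IM and 0.49 in low OM. Between males they were 0.42 in low IM (n = 3) and 0.59 in low OM (n = 5), and 0.53 in low OM without male 6. These spreads rest on groups of unequal size, are a description and were not tested. The DEG had a larger spread than the tested probes as a whole, which their selection by fold change favours. Over all fish of a diet, the 124 DEG higher in low IM had a median SD of 0.81 in low IM and 1.19 in low OM. The 32 lower DEG had 1.04 in low IM and 0.97 in low OM, in the reverse order. Over all tested probes the medians were 0.50 and 0.64.

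The probes named here were fixed by rule, in each direction the probe with the lowest p among those above background on all 19 arrays with the same sign in both sexes, and the one with the largest fold change among those above background on every array of the higher group. No gene is paired with them in the files used here, and each was picked for its difference at the low level, so its value is at the upper end of what the comparison gave.

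Ssa#KSS1939 was the DEG higher in low IM with the lowest p among those measured on all 19 arrays. Its levels were -0.92, -0.38, -0.16, -1.85 and -1.71 in low IM females and -1.12, -2.10 and -1.08 in low IM males. In low OM they were -1.26, -2.43, -2.58, -2.59, -2.24 and -1.87 in females and -4.01, -2.73, -2.43, -1.96 and -2.02 in males. The low IM fish lay mostly above the low OM fish, and the ranges overlapped between -2.10 and -1.26, where 3 low IM and 4 low OM fish lay. The mean was -1.17 ± 0.69 in low IM and -2.37 ± 0.68 in low OM (SD, n = 8 and 11). This is a difference of 1.17 on the log2 scale with a standard error of 0.30 (95% interval 0.55 to 1.80, limma, p = 0.000924, adjusted p = 0.999). The signal was thus 2.25-fold higher in low IM. The difference was 1.16 in females and 1.20 in males and was positive on 6 of 6 slides, from 0.16 to 2.88. With normexp background correction, run on the median spot signal with an offset of 50, it was 0.66, under the fold limit.

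Ssa#S35662467 had the lowest p of all tested probes and was lower in low IM. Its levels in low IM were -0.19, -1.31, -1.71, -1.13 and -1.47 in females and -1.74, -0.53 and -0.53 in males. The low OM levels were 0.44, -0.22, -0.11, 0.71, -0.51 and -0.07 in females and 1.17, -0.85, -0.39, 0.36 and 0.84 in males. All low IM levels were below 0 and 5 of the 11 low OM levels were above it, and the ranges overlapped between -0.85 and -0.19, where 3 low IM and 4 low OM fish lay. The mean was -1.08 ± 0.59 in low IM and 0.13 ± 0.63 in low OM (SD, n = 8 and 11). This is a log2 difference of -1.19 with a standard error of 0.28 (95% interval -1.77 to -0.60, limma, p = 0.000472, adjusted p = 0.999). It was -1.20 in females and -1.16 in males. The difference was negative on 5 of 6 slides, the exception being slide 5 with 0.09. With normexp it was -0.81, just short of the fold limit.

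Ssa#GRASP223672662 had the largest fitted difference of all tested probes on this scale and was either bright or near the background in a given fish. In low IM it was bright in all 8 fish, with levels of 3.94, 4.73, 4.52, 2.83 and 5.03 in females and 4.98 and 3.75 in males 1 and 5. The spot of low IM male 2 was marked as an outlier by the scanner software and left out of the fit, although its signal of 7725 was bright. In low OM, 6 fish were bright and 5 were not. Low OM females 2, 3 and 4 had levels of 2.99, 2.78 and 3.24 and male 3 had 5.69, whereas females 1 and 5 had -7.16 and -5.21 and males 4, 5 and 6 had -8.09, -5.02 and -3.12. The spots of low OM female 6 and male 2 were bright (signals of 4632 and 16571) but marked as outliers and left out too. Signal was well above background in 8 of 8 low IM and 8 of 11 low OM fish. The log2 difference was 5.62 with a standard error of 1.90 (95% interval 1.60 to 9.64, limma, p = 0.00918, adjusted p = 0.999), and 4.67 with the marked spots kept. Its size rests on where the dim low OM spots land on the log scale, 3 of which were not above background, and it was 3.38 with normexp and 3.46 with the authors' values. With slide as a fixed term it was 4.61 with a standard error of 2.89 (limma, p = 0.139), which ends the call. Only 3 of 6 slides gave a value, which was 6.42 on slide 1, 0.67 on slide 2 and 7.82 on slide 6. Its within-diet SD was 0.80 in low IM and 5.21 in low OM. The split also occurred at the high level, where 2 of 6 high IM fish and 2 of 9 high OM fish were dim, against 0 of 8 low IM fish and 5 of 11 low OM fish at the low level.

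Ssa#S35663823 had the largest fold change toward lower in low IM among the DEG above background on every low OM array. In low IM females its levels were -4.07, -6.05, -4.10, -4.85 and -5.20, and in low IM males -5.76, 0.08 and -3.34. The low OM females had -4.26, -1.19, -1.35, -2.22, -2.62 and -4.04, and the low OM males -1.20, -0.99, -0.41, -1.22 and -0.36. Low OM males were bright throughout, and 7 of the 8 low IM fish were at or below -3.34, but low IM male 2 was brighter than every low OM fish and low OM females 1 and 6 lay among the low IM values. The probe was well above background in 5 of 8 low IM and 11 of 11 low OM fish. The mean was -4.16 ± 1.94 in low IM and -1.81 ± 1.33 in low OM (SD, n = 8 and 11). This is a log2 difference of -2.21 with a standard error of 0.59 (95% interval -3.44 to -0.98, limma, p = 0.00129, adjusted p = 0.999). It was -2.75 without low IM male 2. With normexp it was -0.59 (limma, p = 0.058), which ends the call. The difference was negative on 5 of 6 slides and 0.78 on slide 5, which holds that fish.

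**Figure D3:**
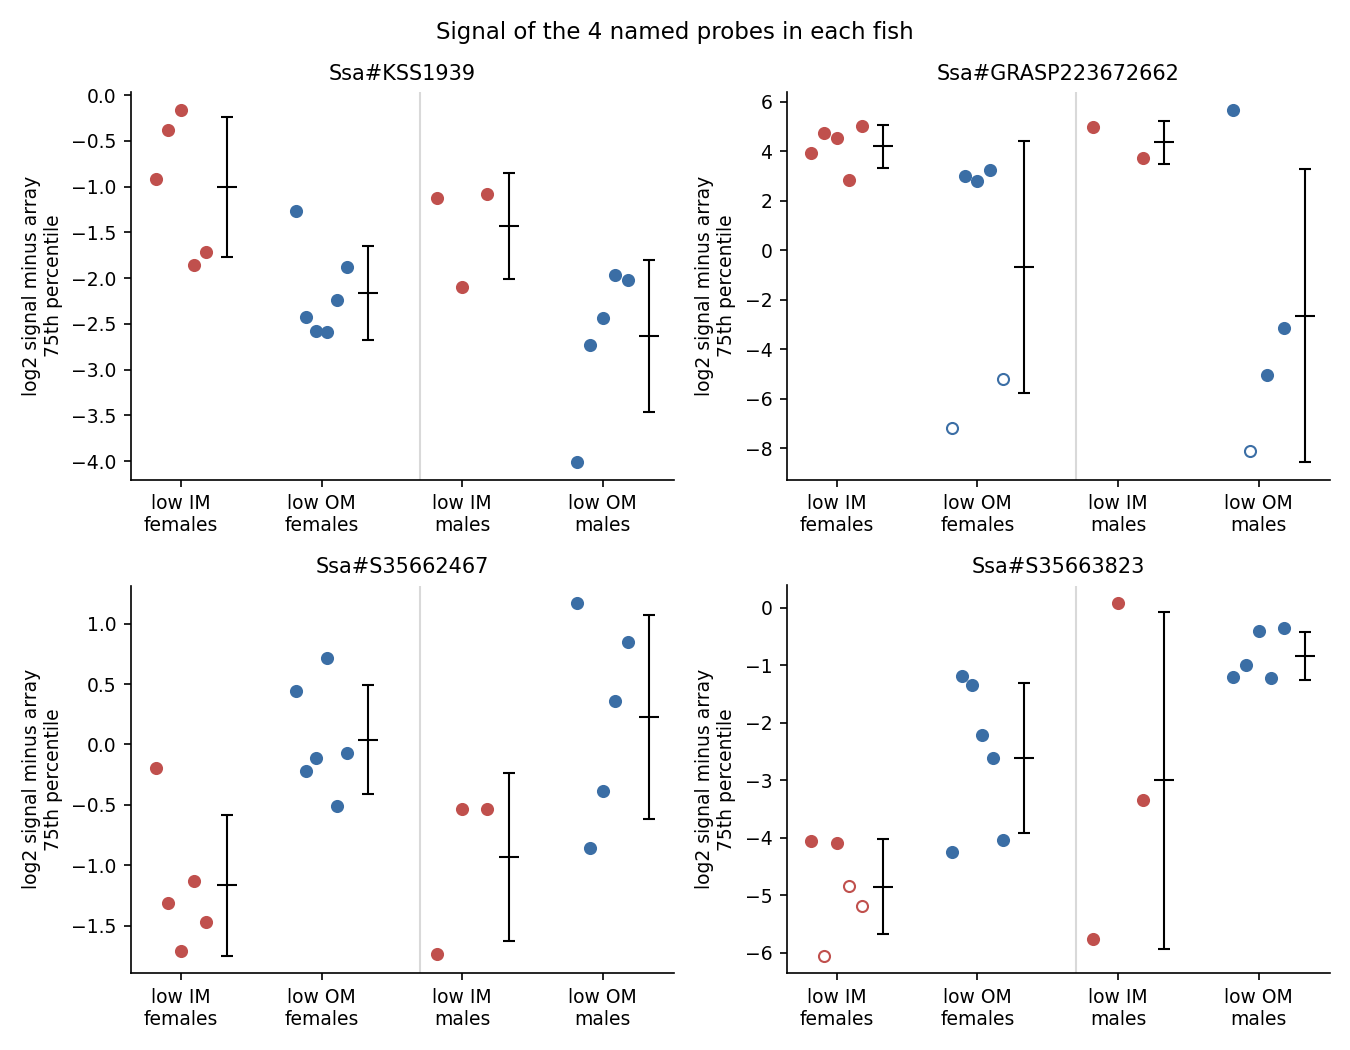
Level of the 4 named probes in each fish (log2 signal minus the array's 75th percentile) by diet and sex, with low IM in red and low OM in blue; open points were not well above background, spots marked as outliers are left out, and black bars give the mean and SD. Ssa#GRASP223672662 is bright in all low IM fish shown and splits the low OM fish into bright and dim, and 1 low IM male stands far above the others for Ssa#S35663823.

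Of the 64 DEG above background on all 19 arrays that were higher in low IM, the 10 with the lowest p had fold changes of 1.80 to 5.12 and unadjusted p of 0.000924 to 0.00357 (limma, 0 of them past the adjusted threshold). All 9 that were lower had fold changes of 1.80 to 3.22 and p of 0.000472 to 0.0372. These 19 differed in the same direction in females and in males. Of the full 156 DEG, 151 had the same sign in both sexes, which the fit over both sexes favours by its construction. Called probes rarely ran the same way on every slide. Among those with a value on all 6 slides, 20 of 117 higher and 6 of 31 lower probes had the same sign on each. Over all probes with such values it was 187 of 10682. The slides hold the same fish that called the probes, so a larger share among called probes is favoured by their selection.

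Within females, low IM differed from low OM at 233 probes by the fold and unadjusted p criteria (2% of those tested), 167 higher and 66 lower in low IM, and at 0 after adjustment (limma, lowest adjusted p = 0.526, with 454 probes under an unadjusted p of 0.05). This split was 158 higher and 109 lower when arrays were centred on their median. The count was 378 without low OM female 6. Within males, 304 probes were called (2.61%), 272 higher and 32 lower in low IM, and again 0 after adjustment (383 under an unadjusted p of 0.05). With 3 low IM males the count rested on single fish. It was 151 (77 higher, 74 lower) without low IM male 1 and 568 without low IM male 2, and among low OM males it was 184 without male 2, 597 without male 3 and 737 without male 4. The 95% interval lay within 2-fold at 51.6% of the probes in females and at 38.8% in males, with a median reach to either side of 1.64-fold in females and 1.83-fold in males.

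The lists of the 2 sexes had 10 probes in common. These were 4.29% of the female list, beside 2.61% of all tested probes called in males, and 3.29% of the male list, beside 2% of all tested probes called in females, and 6 of the 10 went the same way. Across the 11637 probes with a value in both, the log2 fold changes of females and males had a Pearson correlation of 0.118 and a Spearman correlation of 0.047, and the same sign at 50.6% of the probes. These describe probes, which are not independent replicates. The difference in source effect between females and males was itself tested and passed at 0 probes after adjustment (limma, lowest adjusted p = 0.642), with 357 probes (3.07%) under an unadjusted p of 0.05. For the named probes the difference between the sexes was taken as females minus males. It was -0.04 for Ssa#KSS1939 (95% interval -1.36 to 1.27) and -0.04 for Ssa#S35662467 (-1.28 to 1.19). It was -0.07 for Ssa#S35663823 (-2.65 to 2.50) and -2.12 for Ssa#GRASP223672662 (-10.8 to 6.52). The first 2 were picked among probes with the same sign in both sexes, which favours a small difference. The intervals still allow effects that differ more than 2-fold between the sexes.

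**Figure D4:**
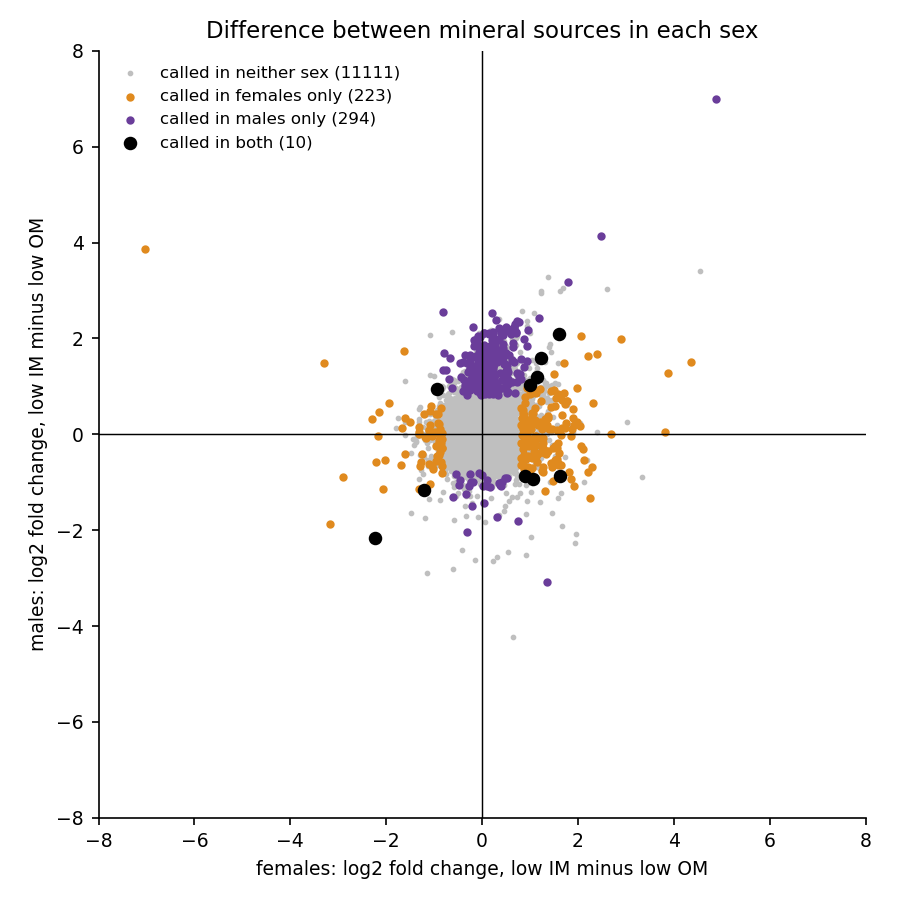
Log2 fold change, low IM minus low OM, in females (horizontal axis) and in males (vertical axis) for each tested probe; colours mark probes called by the fold and unadjusted p criteria in females only (223), in males only (294) and in both (10). The called probes spread along the axes and not along the diagonal, and the calls in males lie mostly above 0.

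Mineral source was then set side by side at the 2 levels in 1 fit of all 34 fish. At the low level 214 probes were called (1.84%), 186 higher and 28 lower in low IM, and 135 of the 156 DEG of the 19 fish were among them. At the high level 644 probes were called (5.53%), 39 higher and 605 lower in high IM than in high OM. The calls thus leaned to opposite sides at the 2 levels, a contrast of counts that was not tested in itself. Both high IM males were on slide 4, which held no high OM fish, so among high-level males source and slide cannot be told apart. The 2 lists had 8 probes in common, and 4 of them went the same way. These were 3.74% of the low-level list, beside 5.53% of all tested probes called at the high level. They were 1.24% of the high-level list, beside 1.84% of all tested probes called at the low level. Across probes the 2 sets of log2 fold changes had a Pearson correlation of 0.124 and the same sign at 50.6% of the probes. The difference between the levels passed at 0 probes after adjustment (limma, lowest adjusted p = 0.841), with 527 probes (4.53%) under an unadjusted p of 0.05. That last number moved most with 1 of the low-level fish, and the high-level fish were not left out in turn. The number was 1222 without low OM male 6, with 0 after adjustment, and 402 to 694 with any other single low-level fish left out.

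None of the 4 named probes was called at the high level. The log2 difference between high IM and high OM was -0.08 for Ssa#KSS1939 (95% interval -0.75 to 0.59), -0.37 for Ssa#S35662467 (-1.09 to 0.34), -1.04 for Ssa#GRASP223672662 (-5.40 to 3.31) and 0.27 for Ssa#S35663823 (-1.10 to 1.65). Ssa#KSS1939 averaged -2.28 ± 0.52 in high IM and -2.37 ± 0.70 in high OM (SD, n = 6 and 9), both close to the low OM mean. Ssa#S35663823 averaged -3.82 ± 0.69 in high IM and -3.66 ± 1.41 in high OM, nearer to low IM than to low OM. The differences between levels, low minus high, were 1.25 for the first (standard error 0.43, limma, p = 0.00696) and -2.52 for the second (standard error 0.89, limma, p = 0.00762). They were -0.82 for Ssa#S35662467 (95% interval -1.76 to 0.11, limma, p = 0.0833) and 7.16 for Ssa#GRASP223672662 (1.22 to 13.1, limma, p = 0.0199). None of the 4 held after adjustment over all probes (limma, adjusted p = 0.841 for each). All were chosen for their difference at the low level, which favours a gap between the levels.

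The source difference was also taken slide by slide, with 1 or 2 fish of each diet on a slide, so that the spread between fish enters each value and a variation of the effect itself was not tested. When low IM minus low OM was taken on each of the 6 slides with both diets, the correlation across 10682 probes between 2 slides had a median of 0.0025 over 15 pairs of slides and ran from -0.46 to 0.48. With slide as a fixed term in place of sex the DEG numbered 146, with slide as a random block 166 and with scan day as a term 165, and none of these fits called a probe after adjustment. Background correction by normexp gave 36 DEG over both sexes, and the authors' processed values gave 123. Within each sex, normexp gave 49 in females, below the 233 of the main fit, but 407 in males, above the 304 there. The normexp setting also used another input signal and an added offset of 50, so more than the background correction changed.

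**Figure D5:**
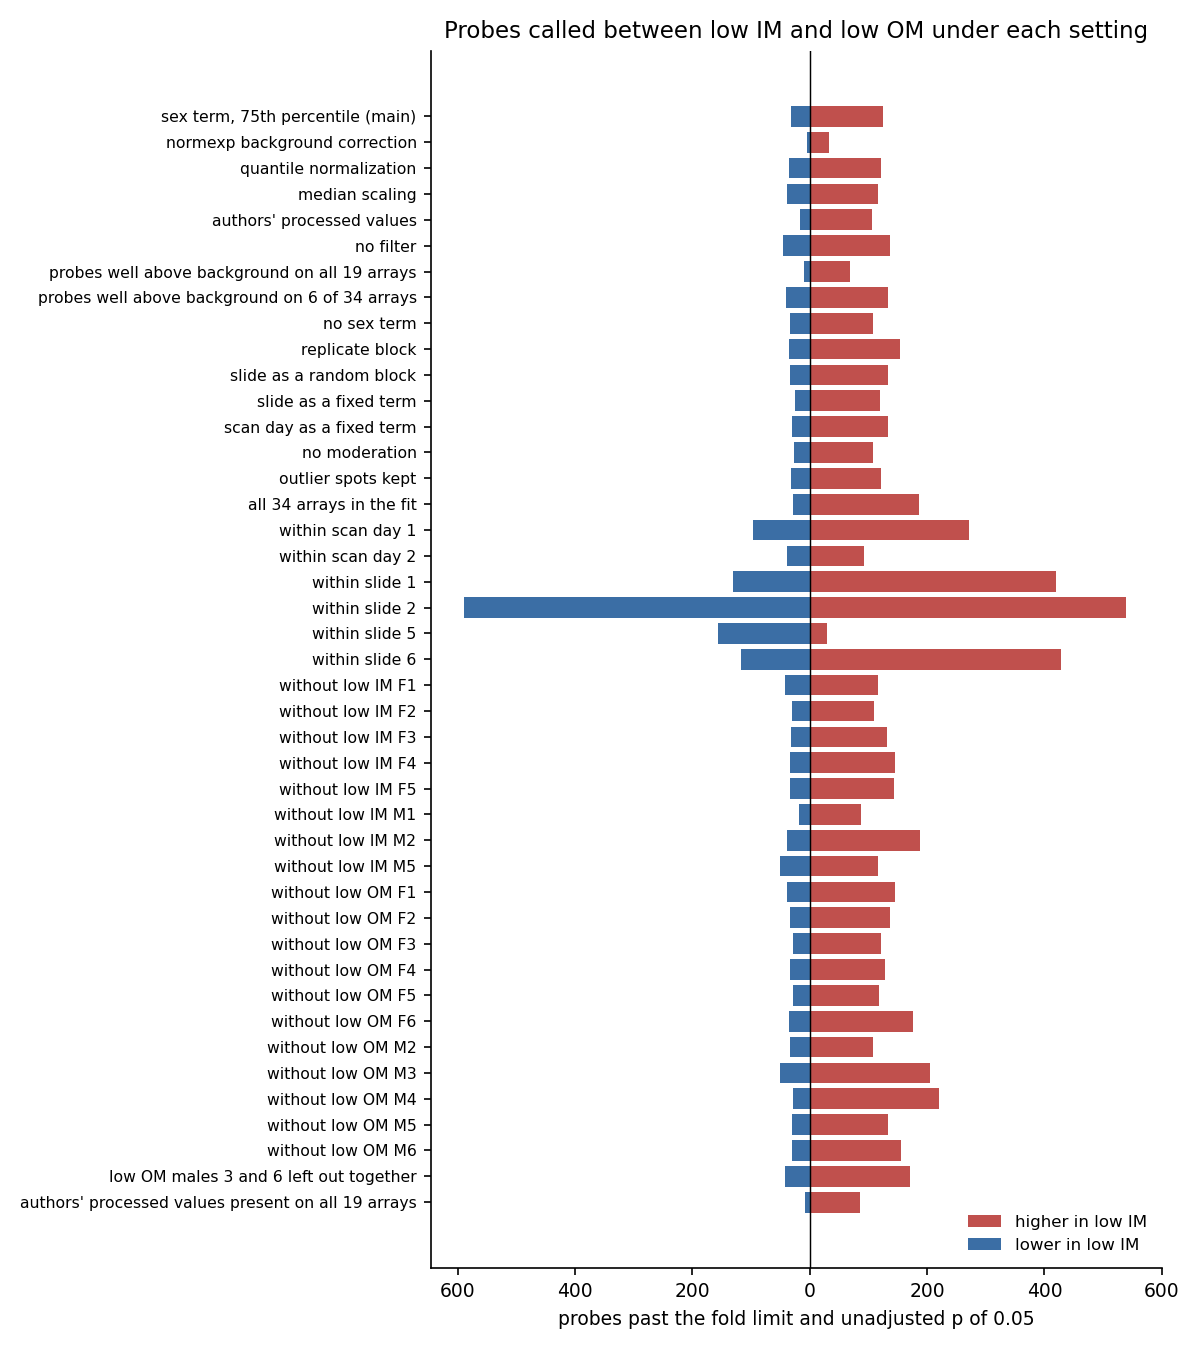
Number of probes called between low IM and low OM by the fold and unadjusted p criteria under each setting, with probes higher in low IM to the right of 0 and probes lower in low IM to the left. Settings that use all fish lie between 79 and 214 calls with more probes higher than lower in low IM, apart from normexp with 36, and single slides range from 186 calls leaning to lower on slide 5 to 1128 balanced calls on slide 2.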

How the data were processed

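Midgut RNA of 34 Atlantic salmon, 1 fish per array, was labelled with Cy3. The authors deposited scanner files in which the intensity of each spot had been background-subtracted by Agilent Feature Extraction 12.0.1.1 but not scaled between arrays, and a table of processed intensity values, used as an alternative. For extraction, the labels and the methods name different kits. The log2 of the processed signal minus the 75th percentile of its array was used. Control spots and 1767 spots marked as outliers on the 19 arrays were left out, and no spot was saturated. The marked spots were uneven, with 818 on the array of low OM male 2 and 227 on the next highest, low IM male 2. With the marked spots kept the DEG over both sexes numbered 154. Probes well above background on at least 8 of the 19 low-level arrays were kept (11638 of 14841). Low IM and low OM were compared with limma 3.58.1 in R 4.3.3, with sex as a term, within each sex, and against the high level in a fit of 34 arrays. P-values were adjusted by Benjamini-Hochberg over all tested probes. A limma p in the text is from this moderated test. Probes were named by lowest p and by fold change. The members and lists were chosen with earlier results of these data known. Planned gene lists were not run, because the probes carry no gene names here. The fit was tested on simulated data. Alternatives covered background correction, scaling, filters, slide, scan day, replicate number and single fish. Normexp was run on the median spot signal, not the processed signal, with an offset of 50.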

Additional observations from a re-analysis of the deposited data

Results flagged for a closer look

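Of 44 sets of values screened (7 array measures and the 4 named probes, each in low IM as a whole, in low IM females, in low OM females and in low OM males), 1 held a fish far from the rest of its group. For Ssa#S35663823, low IM male 2 had a level of 0.078 on the log2 scale, whereas the next highest of the 8 low IM fish was at -3.34. Chance alone marks about 1 in 20 such sets. Low OM as a whole, with 11 fish, and the low IM males, with 3, were not screened. The log2 difference between low IM and low OM was -2.21 with this fish and -2.75 without it.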

How the results depend on the processing

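No setting with all 19 fish called a probe after adjustment; 3 were called within slide 1 and 1 with low OM males 3 and 6 left out together, a choice made after seeing the data. The DEG count over both sexes (156) was 36 with normexp and 79 for probes above background on all 19 arrays. It was 94 with the authors' values present on all 19 arrays (also chosen after seeing the data). Subsets that hold females only gave 368 within scan day 1, and 551 and 1128 within slides 1 and 2. With 1 fish left out the count over both sexes ran from 107 to 255. The female count (233) was 49, 119, 147, 368, 551 and 1128 under the same settings as far as they hold females, 394 within scan day 2, and 175 to 378 with 1 fish left out. The male count (304) was 198 with the authors' values, 174 with those present on all arrays, 503 in the fit of 34 fish, 160 within scan day 2, 186 and 546 within slides 5 and 6, 546 without low OM males 3 and 6, and 151 to 737 with 1 fish left out. Within slide 5, Ssa#S35662467 turned to 0.090 and Ssa#S35663823 to 0.78. Without low OM males 3 and 6 the log2 differences were 1.23 for Ssa#KSS1939 and 6.61 for Ssa#GRASP223672662. They were -1.24 for Ssa#S35662467 and -2.18 for Ssa#S35663823. Normexp raised the male count to 407. With normexp the log2 difference was 0.66 for Ssa#KSS1939, -0.81 for Ssa#S35662467 and -0.59 for Ssa#S35663823, none of which met the fold and p criteria. The causes of these shifts were not tested. The adjusted count was 0 for females minus males under 17 alternatives and for low minus high level under the 7 run for it. It was also 0 for both with each low-level fish left out. Whether fish with the same number in both diets were paired could not be settled. Of 7 such pairs, 5 had deviations correlated above 0.1, with values from -0.31 to 0.44. In the 5 pairs that shared a slide, number and slide cannot be told apart, and 3 of these were above 0.1. The highest values, 0.33 for female 5 and 0.44 for male 2, came from pairs on different slides. With the replicate number as a block the DEG counts were 189 over both sexes, 330 in females and 535 in males. Over both sexes, 544 probes then had an unadjusted p under 0.05, against 404 without the block, and 0 passed after adjustment. Dim probes set the limit of precision, with a median interval reach of 1.76-fold to either side in the dimmest 25%.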

Other observations

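Of the 14841 probes on the array, 6 had signal well above background in a share of fish more than 50 percentage points higher in low IM. At 8 of the 14841 probes this share was more than 50 points lower in low IM than in low OM. A within-diet SD over 2 on the log2 scale, as for a probe that is bright in some fish and near background in others, was found at 87 of the 11638 tested probes in low IM (0.748%) and at 169 in low OM (1.45%). Among the 124 DEG higher in low IM it was found at 3 in low IM and at 8 in low OM (2.42% and 6.45%), and among the 32 lower ones at 3 in low IM and at 1 in low OM (9.38% and 3.12%). Since the DEG were chosen by the difference between the diets, these shares are a description.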
